A study of Mus musculus with 3 samples.

Results

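The genes described here are 10 members of the mouse major histocompatibility complex (MHC) class II pathway, taken from RNA-seq libraries of activated regulatory T cells (Treg). They are Cd74, Ciita, H2-Aa, H2-Ab1, H2-Eb1, H2-DMa, H2-DMb1, H2-DMb2, H2-Oa and H2-Ob, chosen by symbol, and each matched 1 of the 55536 mouse genes in the deposited gene tables. The cells were primary cells of a male mouse labelled 3 weeks old, with the whole organism given as their origin. The labels name 3 libraries, technical replicates 1, 2 and 3 of 1 biological replicate. They are called libraries 1, 2 and 3 here and form 1 group with no control, so nothing below compares conditions. The sources used here do not give the strain, the sort or the way the cells were activated. Every SD below is over these 3 libraries and describes spread between libraries of the same biological replicate.

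MHC class II molecules display peptides from the endosomal pathway to CD4+ T cells. An alpha and a beta chain form the peptide groove, and mouse haplotypes use the pairs called I-A (H2-Aa with H2-Ab1) and I-E. Cd74, the invariant chain, fills the groove until proteases cut it down, H2-DM then exchanges its last fragment for a peptide, and H2-DO holds H2-DM back. Ciita is the coactivator that binds the factors sitting on class II promoters. B cells, dendritic cells, macrophages and thymic epithelium are the classical carriers of these molecules, and resting mouse T cells are known for very low class II transcription.

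The label was checked against T cell genes. All 8 T cell markers reached 1 TPM (a level scaled for transcript length and to a fixed library total) in each library, and Foxp3, the transcription factor that defines Treg, averaged 130.2 ± 22.0 TPM. Cd3g, Lck and Cd3e led the list at 1012, 984 and 973 TPM, and Foxp3 and Il2ra at 158 TPM were its lowest. Library 1 held 30362256 reads on genes, library 2 held 28419259 and library 3 held 31959927. Library 1 stood apart by its red-cell transcripts: 7 erythroid genes summed to 14030, 1180 and 811 TPM in libraries 1, 2 and 3. Hbb-bs, Hba-a2 and Hba-a1 led them at means of 1884, 1709 and 1269 TPM, and Alas2 was among the lowest at 26.6 TPM. Marker lists of other cell types that carry class II are set out further on, because their part in the members' levels was not tested. In such bulk samples, fewer cells of a type and less RNA per cell cannot be told apart.

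Class II transcripts were present in every library, and their level depended on the library. The 10 members together had 1156 TPM in library 1, 535 in library 2 and 946 in library 3. By mean TPM the order was Cd74, H2-DMa, H2-Ab1, H2-Aa, H2-Eb1, H2-Oa, H2-DMb2, H2-DMb1, H2-Ob and Ciita. All members except Ciita reached 1 TPM in each library. Neighbours in this order were called different where their log2((TPM + 1)/(TPM + 1)) had the same sign in all 3 libraries and a mean above 2 SD. By that measure H2-Ab1 was above H2-Aa, H2-Oa above H2-DMb2 and H2-Ob above Ciita, while the other 6 neighbouring pairs did not differ beyond their spread.

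**Figure D1:**
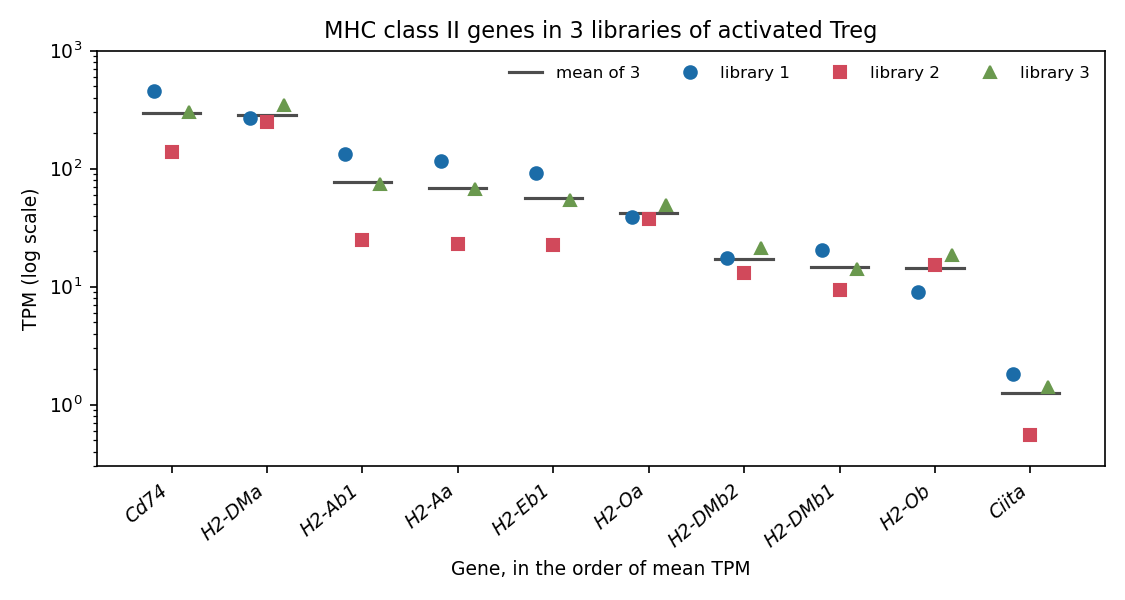
TPM (log axis) of each member in libraries 1, 2 and 3 (points), with the mean of the 3 (line). Cd74 and the 3 peptide-binding chains lie highest in library 1 and lowest in library 2, whereas the H2-DMa and H2-Oa points lie close together.

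Among the peptide-binding chains, H2-Ab1, the beta chain of I-A (chromosome 17, 34257689 to 34269419 of mm10, plus strand), had 133 TPM in library 1, 24.9 in library 2 and 74.6 in library 3, a mean of 77.5 ± 54.1. H2-Aa, its alpha partner (34282744 to 34287823, minus strand), had 115, 22.9 and 66.7 TPM in libraries 1, 2 and 3, a mean of 68.3 ± 46.2. For both, library 1 was highest and library 2 lowest, yet the ratio between the partners barely moved. H2-Aa over H2-Ab1 was -0.21, -0.12 and -0.16 on the log2 scale in libraries 1, 2 and 3 (-0.16 ± 0.04). The difference was small but larger than the spread between libraries. Both genes rested on whole numbers of reads, 2731, 490 and 1762 for H2-Ab1 and 2222, 417 and 1533 for H2-Aa.

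H2-Eb1, the beta chain of I-E (34305867 to 34316674, plus strand), followed with 92.4 TPM in library 1, 22.5 in library 2 and 54.2 in library 3 (mean 56.4 ± 35.0). Its level and that of H2-Ab1 did not differ beyond the spread, with a log2 ratio of H2-Ab1 over H2-Eb1 of 0.37 ± 0.20. The alpha partner of I-E is annotated in this reference as a polymorphic pseudogene, H2-Ea-ps, and it had 0 reads in all 3 libraries, which allows up to 3 reads in each. H2-Eb2, a further class II beta gene beside it, had 7, 5 and 0 reads in libraries 1, 2 and 3. An I-E beta transcript was therefore counted without reads of its alpha gene. The mouse strain was not given, so the haplotype these reads come from is not known.

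Cd74, the invariant chain, was the most abundant member by mean over all 3 libraries, but not without library 1. It had 459.9 TPM in library 1, 138 in library 2 and 301 in library 3 (mean 299 ± 161). Over H2-Ab1 its log2 ratio was 1.78, 2.42 and 2.00 in libraries 1, 2 and 3 (2.07 ± 0.32), so invariant chain transcripts exceeded those of the beta chain in each library. The excess was largest in library 2, where both genes were lowest.

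The H2-DM genes, whose products load peptide onto class II, did not follow Cd74 as a set. H2-DMa, the alpha chain (34119541 to 34139101, plus strand), had 268 TPM in library 1, 251 in library 2 and 345 in library 3 (mean 288 ± 50.2), a level its neighbour Cd74 did not exceed beyond the spread. The beta chain is encoded by both H2-DMb1 (34153072 to 34160230, plus strand) and H2-DMb2 (34143307 to 34151555, plus strand). H2-DMb1 had 20.5, 9.29 and 14.0 TPM and H2-DMb2 had 17.5, 12.9 and 21.1 TPM in libraries 1, 2 and 3. Alpha chain transcripts were thus far above those of either beta gene: the log2 ratio of H2-DMa over H2-DMb1 was 4.26 ± 0.54. Summed, both beta genes reached 38.0, 22.2 and 35.1 TPM in libraries 1, 2 and 3.

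The division between the beta genes is uncertain. The coding sequences of their principal transcripts were identical at 751 of 783 positions (95.9%) and shared an identical run of 221 bases, so reads had to be divided by an estimate. Their log2 ratio changed sign, at 0.22, -0.44 and -0.56 in libraries 1, 2 and 3, and did not exceed the spread.

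H2-Oa and H2-Ob encode the chains of H2-DO, the inhibitor of H2-DM that is best known from B cells and thymic epithelium. H2-Oa (34092340 to 34095234, plus strand) had 38.6 TPM in library 1, 37.6 in library 2 and 49.2 in library 3 (mean 41.8 ± 6.46). H2-Ob (34238903 to 34254414, plus strand) had 9.10, 15.2 and 18.6 TPM in libraries 1, 2 and 3 (mean 14.3 ± 4.81). H2-Ob was the 1 member with its lowest value in library 1, and its reads numbered 319, 412 and 715. The alpha chain exceeded the beta chain in each library, by 1.53 ± 0.39 on the log2 scale. H2-DMa and H2-Oa kept a near-constant ratio of 2.76, 2.71 and 2.78 (log2) in libraries 1, 2 and 3.

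Ciita, the coactivator (chromosome 16, 10480059 to 10528418, plus strand), was the lowest member at 1.82, 0.55 and 1.42 TPM in libraries 1, 2 and 3 (mean 1.26 ± 0.649). It rested on 181, 54 and 141 reads. The exact Poisson 95% interval of the 54 reads of library 2 was 40.6 to 70.5, and that of the 181 reads of library 1 was 155.6 to 209.4, so the intervals did not overlap. They cover counting error only. Dexi overlaps the gene on the opposite strand with 678, 669 and 774 reads in libraries 1, 2 and 3. The sources used here do not say whether the libraries keep strand, so reads of either gene may be counted for the other. The same holds for H2-Oa under the antisense gene BC051537, which had 7.83, 18.9 and 37.3 estimated reads. Brd2, with 11384, 10998 and 9150 reads in libraries 1, 2 and 3, overlaps only the 5′ end of H2-DMa. Brd2 ends at 34122634, and the main transcript of H2-DMa, with 95.7% of its TPM, starts further along at 34135628.

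The spread between libraries was set against all genes. A chi-square test of the 3 rounded expected counts against library sizes scaled by edgeR's trimmed mean of M values (TMM), with Benjamini-Hochberg adjustment over all 17190 genes of at least 10 reads on average, called 10 of 10 members, but it also called 79.8% of all genes tested. The largest adjusted p among the members, from this chi-square test, was 5.96e-13 for Ciita. The test compares these libraries, not conditions, and its count alone says little about the members. The ratio of the highest to the lowest library, in TMM-scaled CPM (reads scaled to a common library size), gives the size. All 10 members passed the minimum of 100 reads on average set for this ratio. Their median ratio was 2.67 against 1.34 over all 11113 genes of that depth, and 7 of 10 members differed 2-fold or more, against 11.0% of all such genes.

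The same order of libraries returned in most of the members. Library 1 was highest and library 2 lowest, 2-fold or more apart, in 6 of 10 members, namely Cd74, H2-Aa, H2-Ab1, H2-Eb1, H2-DMb1 and Ciita, against 1.94% of all genes. The ratios were 5.16 for H2-Ab1, 4.93 for H2-Aa, 4.13 for H2-Eb1, 3.35 for Cd74, 3.10 for Ciita and 2.25 for H2-DMb1. Of all genes of that depth, 1.04% had a larger ratio than H2-Ab1 and 2.90% a larger one than Ciita. The other 4, H2-DMa, H2-Oa, H2-DMb2 and H2-Ob, were highest in library 3, as were 29.4% of all genes, with ratios of 1.44, 1.40, 1.73 and 2.03. Library 2 was lowest for 9 of 10 members, against 23.4% of all genes. The pattern rests on library 2. Without it 0 of 10 members were 2-fold apart, against 7.57% of all genes, and the members' median ratio was 1.46. Without library 1, 4 of the 9 members that kept 100 reads were 2-fold apart, against 5.27% of all genes, and the median ratio was 1.86.

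**Figure D2:**
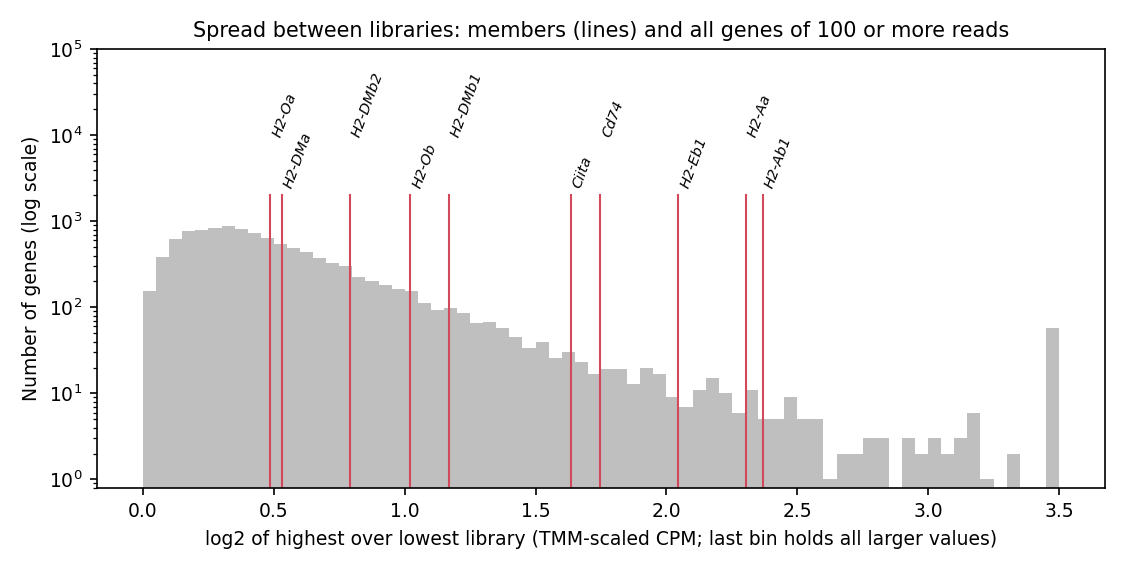
Number of genes (log axis) by the log2 ratio of highest to lowest library in TMM-scaled CPM, for all 11113 genes averaging at least 100 reads (grey), with the members as lines. H2-Oa and H2-DMa lie in the bulk of genes, and H2-Eb1, H2-Aa and H2-Ab1 lie in the tail with ratios of 4.13, 4.93 and 5.16.

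The deposited whole-number gene table, made on an older annotation, ranked the libraries alike for Cd74 and the peptide-binding chains, with a smaller range. Cd74 had 1446, 947 and 1351 counts there in libraries 1, 2 and 3, against 10495, 2899 and 8017 reads in the main table. H2-Ab1 had 1036, 313 and 796 counts. B2m, the light chain of MHC class I, had 853, 858 and 859 counts in the whole-number table, against 94743, 74534 and 109156 reads. High levels are therefore compressed in that table, and it was used only as an alternative.

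Promoter sequences are shown so that members with the shared order of libraries can be set beside the others. Class II promoters are known to carry an X box, bound by the RFX factors, and a Y box, bound by NF-Y, in a fixed order upstream of the start. RefSeq promoter windows on GRCm38.p6 were at hand for 7 of 10 members, and the 250 bases before the start were searched on both strands. Y-like matches (TGATTGG) were in 6 of the 7, all but H2-DMa, against 7.23% of 32851 windows of that length. X-like matches (AGNAACNNA) were in H2-Oa, H2-DMb1, H2-Ob and H2-Eb1, against 14.4% of windows. The motifs were spelled after these windows had been read, they do not overlap each other, and a match is a description and not a measured site. In the stretches below, each 5′ to 3′ on the strand of the gene, capitals mark the matches.
H2-Eb1 (chr17:34305743-34305817, plus strand): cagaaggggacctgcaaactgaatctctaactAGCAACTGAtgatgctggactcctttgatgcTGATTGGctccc
H2-Aa (chr17:34287862-34287936, minus strand): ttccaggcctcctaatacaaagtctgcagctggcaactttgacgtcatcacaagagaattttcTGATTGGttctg
H2-DMb2 (chr17:34145094-34145168, plus strand): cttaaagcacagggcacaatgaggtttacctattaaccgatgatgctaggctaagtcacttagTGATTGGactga
H2-Oa (chr17:34092271-34092345, plus strand): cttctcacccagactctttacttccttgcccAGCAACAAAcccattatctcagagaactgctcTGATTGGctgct
H2-Ob (chr17:34238783-34238857, plus strand): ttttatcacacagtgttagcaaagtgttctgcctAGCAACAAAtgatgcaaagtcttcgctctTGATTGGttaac

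An X-like match followed by a Y-like match within 40 bases occurred in 13 of 32851 windows (0.0396%), and 4 of these were members. Because the motifs were spelled after the windows of the members had been read, no enrichment can be read from this count. The gap between the matches was 22 bases in H2-Eb1, 23 in H2-Oa and in H2-DMb1, and 20 in H2-Ob. A further window of the 13 belonged to H2-Eb2, which had almost no reads. As spelled here, the arrangement was found in H2-Eb1 and H2-DMb1, which were highest in library 1. It was also found in H2-Oa and H2-Ob, which were highest in library 3. A box that departs from the X-like spelling is missed by this search. The lack of an X-like match in H2-Aa and H2-DMb2 therefore does not show that they lack an X box. The H2-DMb1 matches lie before the RefSeq start at 34153191 but after the gene start at 34153072 in the annotation used for the counts. They fall in its first exon there, so that stretch is not shown. The H2-DMa windows hold neither match, and they belong to start sites (34122832 and 34125518) that lie upstream of the start of its main transcript. The H2-DMb2 window belongs to a start site (34145249) downstream of the start of its main transcript (34143307), whose promoter was not searched.

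The genes for factors that act on these promoters were spread between libraries about as much as genes at large. Of 14 genes for the promoter-binding complex and for regulators of Ciita, 13 reached 1 TPM in each library, and the median ratio of highest to lowest library was 1.34, as over all genes of 100 or more reads. Of the 13 with that many reads 2 differed 2-fold, against 11.0% of all genes. Irf8, a factor of B and myeloid cells, had 42.9, 22.1 and 29.4 TPM in libraries 1, 2 and 3, and Prdm1, a repressor of Ciita in plasma cells, had 27.6, 27.2 and 12.4 TPM. All 14 passed the chi-square test, as did 79.8% of all genes.

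The RFX complex was nearly level across libraries. Rfx5, its DNA-binding subunit, had 18.4, 20.3 and 18.5 TPM in libraries 1, 2 and 3 (19.1 ± 1.05), and Rfxap averaged 98.8 ± 10.6 TPM. Nfyb of the NF-Y complex averaged 77.4 ± 15.0 TPM, whereas Nfya, another subunit, was among the lowest of the list at 4.04 ± 2.57 TPM. Irf1, a factor of the interferon-gamma response that acts on Ciita, was among the most abundant, with 426, 304 and 328 TPM in libraries 1, 2 and 3. It was highest in library 1 and lowest in library 2, by less than 2-fold. Pax5, the B cell factor, had the lowest mean of the list at 0.147 ± 0.167 TPM.

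A list of 12 interferon-response genes showed the same low library. All 12 were lowest in library 2, against 23.4% of all genes, and 5 of 12 differed 2-fold or more, against 11.0%. In 7 of the 12 library 1 was highest, and in the other 5 library 3 was. Only 2 of the 12 had library 1 highest and library 2 lowest at 2-fold or more, against 1.94% of all genes. The part of interferon signalling in the class II levels was not tested.

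A list of genes for class II processing and turnover was spread between libraries about as much as genes at large. It holds proteases, which were its most abundant genes, and others such as ubiquitin ligases. Of the 13 that matched, 12 reached 1 TPM in each library, 1 of the 12 with 100 or more reads differed 2-fold, against 11.0% of all genes, and the median ratio was 1.41, against 1.34. Ctsd and Ctsb, lysosomal proteases, averaged 409 ± 92.9 and 386 ± 62.3 TPM. Ctss, the protease that trims the invariant chain, had 266, 236 and 270.4 TPM in libraries 1, 2 and 3 (257 ± 19.0). Ctsz averaged 93.3 ± 9.52 TPM, and Ifi30, the lysosomal thiol reductase, 39.1 ± 4.43 TPM. The ubiquitin ligases that remove surface class II were the lowest. March8 had 7.86, 1.94 and 3.57 TPM in libraries 1, 2 and 3 and was 4.88-fold apart in CPM. March1 had 1.17, 0.46 and 0.95 TPM and fewer than 100 reads. Both shared the library order of Cd74, highest in library 1 and lowest in library 2. Ctsz and Ctsh did as well, at ratios of 1.22 and 1.56, so 4 of the 13 had it. The share of all genes with this order at any ratio was not computed, so the count says little about the list.

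Markers of other class II carriers were present at low or moderate levels, and some of them had the library order of the class II chains. Highest in library 1 and lowest in library 2 were 4 of 13 B cell, 3 of 12 dendritic cell and 2 of 12 monocyte and macrophage genes. Clec9a is counted among them by a tie at 0 reads between libraries 2 and 3. Of all 11113 genes of 100 or more reads, 3816 were highest in library 1 and 2601 were lowest in library 2. The share with both, at any ratio, was not computed, so these counts say little about the markers. The sum of Cd74, H2-Aa, H2-Ab1 and H2-Eb1 was 800.5 TPM in library 1, 208 in library 2 and 496 in library 3. The B cell list, 5 of 13 genes at 1 TPM or more in each library, summed to 55.7, 49.6 and 80.6 TPM in libraries 1, 2 and 3. It was led by Cd79b at 32.2, Cd79a at 11.6 and Cd22 at 5.95 TPM on average, with Cr2 at 0.353 and Pax5 at 0.147 TPM lowest. The B cell genes with the class II order were all low, namely Pax5, Fcer2a, Bank1 and Fcrla, at ratios of 2.91, 2.89, 1.81 and 2.61. Each averaged fewer than the 100 reads set as the minimum for this ratio. The B cell sum was highest in library 3, while the class II sum was highest in library 1.

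The monocyte and macrophage list, with 9 of 12 genes at 1 TPM or more in each library, summed to 315 TPM in library 1, 203 in library 2 and 188 in library 3. C1qb, Lyz2 and C1qc led it at 57.1, 47.4 and 44.5 TPM, and Itgam at 0.627 and Cd14 at 1.44 TPM were lowest. Its sum was highest in library 1, as for class II, but lowest in library 3. Lyz2, lysozyme of myeloid cells, did have the class II order, with 67.6, 25.0 and 49.5 TPM in libraries 1, 2 and 3 and a CPM ratio of 2.70. So did Fcgr1, a receptor for antibodies, with 3.74, 0.26 and 1.49 TPM and a ratio of 5.89, on 70, 11 and 42 reads. Of the 12 dendritic cell genes only Cst3, which many cell types express, reached 1 TPM in each library, and it hardly moved at 145, 144 and 135 TPM. Ccl22 and Ccl17 followed at 3.42 ± 4.17 and 1.82 ± 2.12 TPM, while Clec9a at 0.13, 0 and 0 TPM and Siglech at 0.0533 TPM on average were lowest. Itgax, the integrin CD11c, had the class II order with 2.12, 0.45 and 0.92 TPM in libraries 1, 2 and 3. Its CPM ratio was 4.08, on 141, 31.7 and 81.8 estimated reads. Batf3, a dendritic cell factor, had that order at 1.98, 0.37 and 1.97 TPM and a ratio of 5.55, on only 30, 5 and 33 reads. Clec9a was counted with that order too, but on 8, 0 and 0 reads, so libraries 2 and 3 were tied.

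With Cst3 the dendritic list summed to 158, 149 and 155 TPM in libraries 1, 2 and 3. Without it, a choice made after the values were seen, the sum was 12.3, 4.98 and 20.0 TPM, lowest in library 2 like class II but highest in library 3. The thymic epithelium list summed to 5.94, 14.7 and 7.21 TPM and was nearly all Epcam (8.65 ± 4.67 TPM), with Aire at 0.460 ± 0.280 and Krt8 at 0.120 ± 0.106 TPM. Foxn1, its defining factor, had 0 TPM in libraries 1 and 2 and 0.03 in library 3, and Krt5 had 0.05 TPM in library 2 and 0 in the others. The class II sum divided by the sum of the 37 B cell, dendritic cell and macrophage genes was 1.51 in library 1, 0.517 in library 2 and 1.17 in library 3 (1.07 ± 0.507). Cst3 alone gave 145, 144 and 135 of the 528.8, 402.5 and 423.4 TPM of that marker sum. By list, the ratio was 14.4, 4.20 and 6.16 for B cell genes and 2.54, 1.02 and 2.64 for macrophage genes, lowest in library 2. For dendritic genes it was 5.08, 1.39 and 3.21 with Cst3, but 65.1, 41.8 and 24.8 without it, lowest in library 3. The part that carried-over cells of these types have in the members' levels was not tested.

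**Figure D3:**
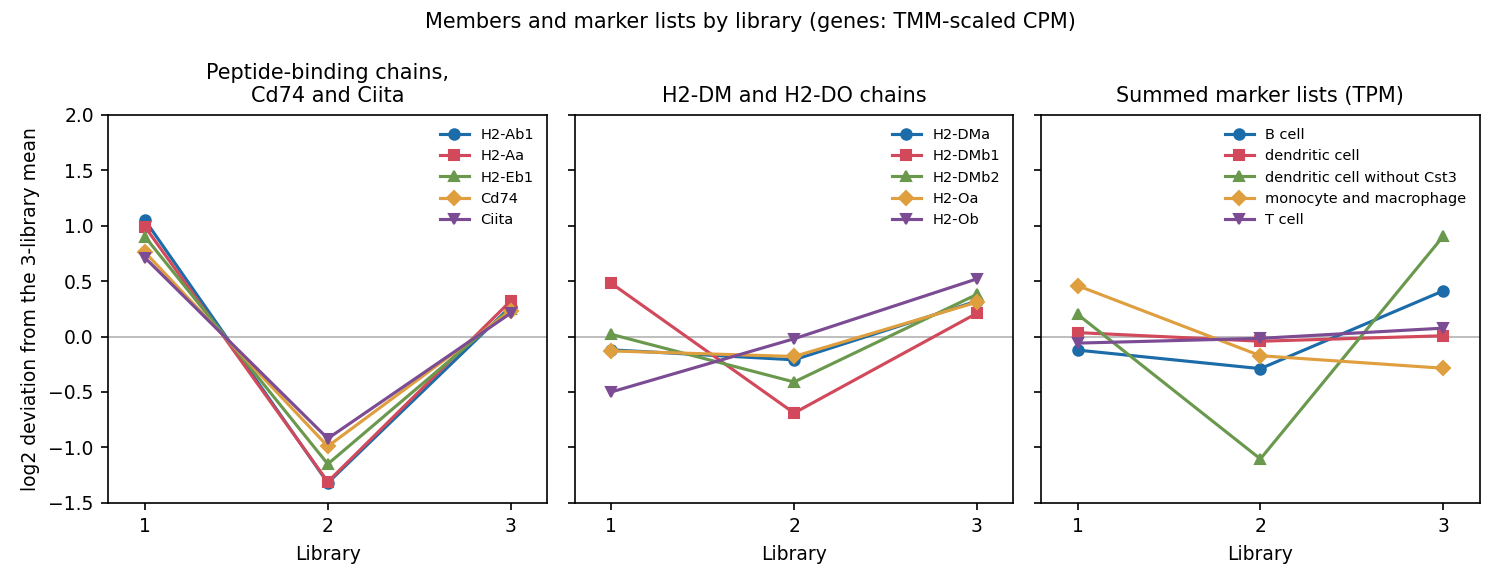
Log2 deviation of each library from the 3-library mean for the peptide-binding chains, Cd74 and Ciita (left), the H2-DM and H2-DO chains (middle, both from TMM-scaled CPM) and summed marker lists (right, from TPM). The 5 genes on the left share 1 course with a minimum in library 2, and of the marker lists on the right the dendritic list that includes Cst3 alone has that order of libraries, at a highest over lowest ratio of 1.055.

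Genes with the course most like that of the class II sum were found by the distance between log2 deviations over the 3 libraries, among 11105 genes that averaged at least 100 reads and had reads in each library. The sum deviated by 0.84 in library 1, -1.08 in library 2 and 0.24 in library 3. The closest, after leaving out its own 4 genes, was Adamdec1, a metalloprotease of tissue macrophages and dendritic cells, at a distance of 0.01, with 3.74, 0.97 and 2.33 TPM in libraries 1, 2 and 3. Neil3, a DNA glycosylase, and Clspn, a replication checkpoint adaptor, lay at 0.02 and 0.04. Lpl, lipoprotein lipase, and Aurkb, a mitotic kinase, lay at 0.07 and 0.11. With 3 libraries many genes can share a course, and 64 genes lay within 0.5. Ciita ranked 12 at a distance of 0.21 and H2-DMb1 ranked 80 at 0.54. H2-DMa ranked 2378, H2-Oa 2704 and H2-Ob 9594.

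Transcript estimates, which divide reads among overlapping annotated transcripts and so are model based, put 1 transcript at 50% or more of the gene's TPM in each library for 7 of 10 members. Cd74 (chromosome 18, 60803848 to 60812652, plus strand) was mostly the short form. The transcript of 8 exons and 215 codons took 84.8%, 88.6% and 87.9% in libraries 1, 2 and 3. The transcript of 9 exons and 279 codons includes a further exon of 192 bases (60811294 to 60811485), which encodes the thyroglobulin type 1 domain of the long invariant chain known as p41, and took 15.1%, 11.4% and 12.04%. The division moved little although the level of Cd74 moved 3.35-fold.

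Both I-A chains had a further coding transcript that lacks exon 2, the exon for the outer, peptide-binding domain. In H2-Ab1 it lacks the 273 bases of exon 2 (34264761 to 34265033) and took 21.2%, 13.4% and 25.1% in libraries 1, 2 and 3, beside 76.1%, 86.0% and 68.9% for the full-length transcript. In H2-Aa it lacks the 249 bases of exon 2 (34284288 to 34284536) and took 22.9%, 18.1% and 19.2%, beside 76.1%, 81.4% and 79.3% for the full-length transcript. In both genes the share without exon 2 was lowest in library 2, where the genes were lowest.

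H2-Eb1 was divided otherwise. A transcript annotated for nonsense-mediated decay lacks the first 53 of the 270 bases of exon 2 (34309591 to 34309643) and took 57.6%, 66.9% and 74.2% in libraries 1, 2 and 3 (66.2 ± 8.30%). Compared with the principal coding transcript, the decay transcript also starts later (34305926 against 34305867) and ends earlier (34316199 against 34316674). Its share therefore does not rest on exon 2 alone. Retained-intron transcripts took 29.5 ± 6.32%. The coding transcripts together took 7.35%, 2.31% and 3.21%, which is 189.3, 14.8 and 62.7 estimated reads. Exon 2 is where class II alleles differ most, the reference genome is that of C57BL/6J and the strain was not given. The part of allele differences in these shares, and in those of the I-A transcripts without exon 2, was not tested.

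**Figure D4:**
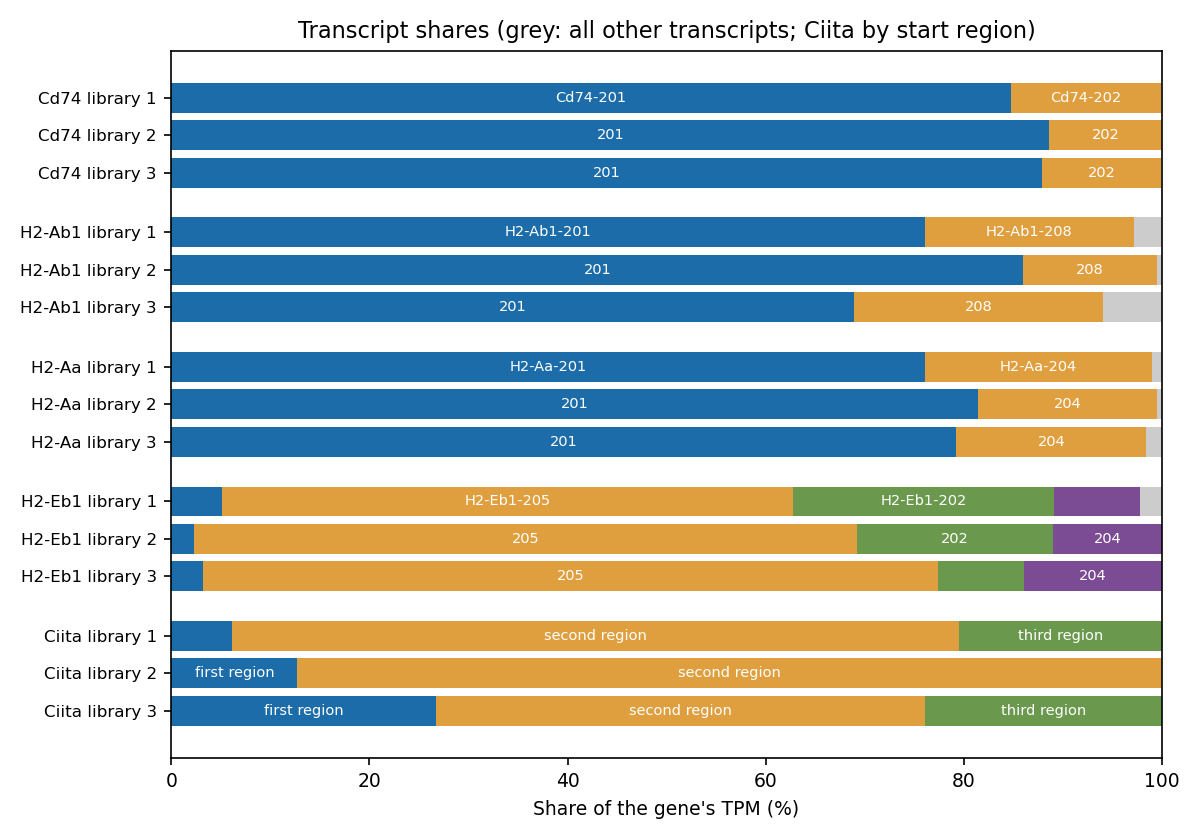
Share of the gene's TPM (%) in each library for Cd74 (blue short form, orange long form), H2-Ab1 and H2-Aa (blue full length, orange without exon 2), H2-Eb1 (blue principal coding, orange decay, green and purple retained intron) and the Ciita start regions (blue the first, orange the second, green the third), with all other transcripts in grey. The form encoding the short Cd74 and the full-length I-A chains leads in each library, and in H2-Eb1 the decay transcript leads at 57.6% to 74.2%.

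The main transcript of H2-DMa, a coding one, took 95.7 ± 1.15%, and the 1 coding transcript of H2-Oa took 82.5 ± 3.70%. In H2-DMb2 a transcript with a shorter reading frame of 130 codons took 65.9 ± 4.54%, and the principal transcript of 261 codons took 34.1 ± 4.54%. They start at different places (34143307 and 34145236) and showed no difference in inner exons. Their division therefore rests on reads at their ends, in a gene whose reads are also divided with H2-DMb1. H2-DMb1 was split between its coding transcript at 41.2%, 39.98% and 61.5% in libraries 1, 2 and 3 and a processed transcript without a coding sequence at 51.0%, 47.4% and 20.9%. In H2-Ob coding transcripts took 47.5 ± 7.67% and retained-intron transcripts 47.9 ± 7.25%.

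Ciita transcripts begin in 3 regions, and promoters of this gene are known to be used by different cells: pI by dendritic cells and macrophages, pIII by B cells and activated human T cells, and pIV after interferon-gamma. In the order along the gene, the first region (10480059 to 10480164) took 6.08%, 12.7% and 26.8% of the gene's TPM in libraries 1, 2 and 3. The second (10488178 to 10488279) took 73.5%, 87.3% and 49.3%, and the third (10489746 to 10489783) took 20.4%, 0% and 23.9%. The annotation used does not name the promoters, and the regions are therefore given by position only. The second region led in libraries 1 and 2 and was the largest of the 3 in library 3. The region furthest along had 26.5, 0 and 29.4 estimated reads in libraries 1, 2 and 3, and the first had 7.04, 3.97 and 27.0, so these shares rest on few reads and on exons that the transcripts largely have in common.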

How the data were processed

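Polyadenylated RNA of 3 libraries was sheared to a labelled size range of 100 to 300. The members and lists were chosen with earlier results of these data known. Per the file headers and deposited notes, the main gene and transcript tables use mm10 with GENCODE M21 and the column layout of RSEM. Expected counts as deposited are the authors' estimated reads per gene, not normalized. TPM and FPKM as deposited were scaled by the authors for length and library. The whole-number counts per gene deposited beside them cover 22457 genes of GENCODE M4, with the counter not given in the sources used here. The posterior mean columns are another estimate by the authors.

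Expected counts were rounded. Spike-in and transfer RNA entries (0.166% to 0.229% of reads) were left out of library sizes. TMM sizes came from edgeR 4.0.16 and size factors from DESeq2 1.42.0, both in R 4.3.3. Chi-square tests (2 degrees of freedom, threshold 0.05) used scipy 1.17.1 and were tested on simulated data. With 1 group no quasi-likelihood contrast exists, and 3 libraries cannot give an exact sign-flip p below 0.25. Limits for 0 reads are 3 reads and cover counting error only. Detection was set at 1 TPM, and log2 ratios used a pseudocount of 1. Genes named are the members, the other class II region genes, the highest 4 and lowest 2 of the regulator and processing lists with Ctss, Ifi30 and Rfx5, the highest 3 and lowest 2 of each cell list, and the 5 closest in course. Irf8, Prdm1, B2m, overlapping genes, and Ctsh and carrier markers given for their library order were named after their values were seen. Some list members covered by this choice are not reported here by name and remain in the sums and counts of their lists. Alternatives were DESeq2 sizes, other read minimums, posterior means, FPKM, the whole-number table, a pseudocount of 0.1 and leaving out each library.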

Additional observations from a re-analysis of the deposited data

How the results depend on the processing

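No paired analysis was possible because the labels give 1 group. No pair ratio that was rerun changed the sign of its mean under any alternative. The order of members by mean TPM did change without library 1. There H2-DMa averaged 298 TPM against 219 for Cd74. H2-Oa averaged 43.4 against 38.3 for H2-Eb1, and H2-Ob 16.9 against 11.65 for H2-DMb1. The count of members that passed the chi-square test was 9 to 10 of 10: H2-DMa was lost in the whole-number table and H2-Oa without library 3. All genes called numbered 13714 of 17190 in the main test, 13705 with DESeq2 size factors, 17796 of 37268 with no read minimum, 10909 of 12531 with a minimum of 50 reads, 13690 with posterior mean counts, 7802 of 12026 in the whole-number table, and 8910 to 11736 with 1 library left out. The count of members 2-fold apart, whose alternatives were chosen after seeing the data, was 7 in the main analysis, 4 of 8 in the whole-number table, and 0 to 6 with 1 library left out. The median ratio of highest to lowest library was 2.67, with 2.15 in the whole-number table and 1.46 to 2.67 with 1 library left out. The lowest values of both came without library 2. In the other alternatives run, these counts and medians stayed within 1.5 times the main value.

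The mean summed level of 879 TPM was 740.3 to 1051 with 1 library left out, 570 in FPKM and 818 with posterior means. Pairs that differed beyond their spread numbered 6, and 6 to 7 in the alternatives. Cd74 over H2-Ab1 was no longer beyond the spread in the whole-number table, at 0.94 (log2). H2-Ab1 over H2-Eb1 exceeded the spread in that table at 0.36, with posterior means at 0.42 and without library 2 at 0.49. H2-DMb1 over H2-DMb2 did so without library 1, at -0.50. Members with 1 main transcript numbered 7, and 7 to 8 with 1 library left out, and 10 when shares were taken from expected counts. The leading Ciita transcript, which starts in the second region, averaged 64.7% of the gene's TPM and 46.3% with posterior means. The class II sum over the marker sum was 0.845 to 1.34 with 1 library left out. The causes of these shifts were not tested. Depth limits Ciita most, with 54 reads in library 2.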
